A study of Mus musculus with 6 samples.

Results

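Neurog3, Neurod1, Pax4, Pax6, Mafa and Hes6 are transcription factors of the endocrine programme of the pancreas, and their probes were followed here in embryos that lack Sox4. A probe was included where its single gene symbol in the platform's probe annotation was one of these 6 names. This gave 6 genes of the 11023 with such probes, and 19 of the 21888 probes on the array, 2 for Neurog3, 3 each for Neurod1, Pax4 and Pax6, 2 for Mafa and 6 for Hes6, and all 19 had values on at least 4 arrays and entered the test.

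The samples were 6 spotted arrays, each hybridised with RNA of embryonic day 12.5 pancreas from homozygous Sox4-/- embryos in channel 2 and from their wild-type littermates in channel 1. The mutants carry a null allele of Sox4 throughout the embryo, and a cardiac outflow tract defect of that line is cited in the labels, so the deletion was not limited to the pancreas. According to the descriptions of arrays 1 and 2, pancreases were combined into 2 pools before RNA was isolated and amplified, and the descriptions of arrays 3 to 6 do not say how their RNA was made. The arrays may therefore be repeated hybridisations of 1 pool of each genotype, and the p-values would then reflect technical spread alone. Strain, sex and the number of embryos are not stated in the labels.

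Every value below is a log2 ratio of the 2 channels, centred on the median of its array. It is read as knockout over wild type, a direction that is only likely: the channel order and the sample titles point to it, while neither the dyes nor the sign of the deposited ratio is stated there. If the ratio runs the other way, every sign below turns. Sox4 does not settle this, since its 2 probes had means of -0.03 and -0.09 (limma adjusted p of 0.892 and 0.446) and whether they lie in the deleted sequence is not known here. Each genotype stayed in 1 channel throughout, so a channel bias of a probe cannot be told apart from a genotype difference. A ratio also gives no level, so the labelled tissue could not be checked by the presence of its defining markers.

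Endocrine cells of the pancreas arise from an epithelium of progenitors that also forms ducts and acini. Neurog3, a basic helix-loop-helix (bHLH) factor, is switched on briefly in single progenitors and commits them to an endocrine fate. Notch signalling holds it down in neighbouring cells through the repressor Hes1. Neurog3 activates Neurod1 and Pax4, while Pax6 and Mafa act in the hormone-producing cells that follow. Hes6 is a relative of Hes1 that interferes with Hes1 and is itself raised in cells that express proneural bHLH factors. Sox4 belongs to the SoxC family, whose HMG box binds short DNA words such as ACAAAG.

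The stretches upstream of Neurog3, Neurod1 and Hes6 are shown because Sox4, the missing factor, binds words of this kind, because Neurog3 had the member probe that passed the test, and because most probes of Neurod1 and Hes6 lay on opposite sides of 0. The sequences are from RefSeq, build GRCm38.p6, and run over the 250 bases before the annotated start. They lie on chr10:62132840-62133089 (plus strand) for Neurog3, chr2:79456637-79456886 (minus strand) for Neurod1 and chr1:91414039-91414288 (minus strand, the outer of 2 annotated starts) for Hes6. The genes themselves span chr10:62133090-62134763, chr2:79452637-79456636 and chr1:91411483-91414038, so each window ends next to its gene. The sequences of the spotted probes are not used here, so the exons they match are not stated. Capitals mark ACAAAG or ACAATG on either strand.
Neurog3: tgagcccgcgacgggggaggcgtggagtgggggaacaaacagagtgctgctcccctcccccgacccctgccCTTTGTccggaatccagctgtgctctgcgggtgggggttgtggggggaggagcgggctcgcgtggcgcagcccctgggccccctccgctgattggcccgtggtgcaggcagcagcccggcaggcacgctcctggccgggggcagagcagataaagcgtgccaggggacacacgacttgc
Neurod1: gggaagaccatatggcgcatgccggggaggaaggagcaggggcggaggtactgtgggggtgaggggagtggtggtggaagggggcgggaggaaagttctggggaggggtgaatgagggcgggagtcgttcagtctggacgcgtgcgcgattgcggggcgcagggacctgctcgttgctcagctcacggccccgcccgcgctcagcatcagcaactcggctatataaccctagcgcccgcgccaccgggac
Hes6: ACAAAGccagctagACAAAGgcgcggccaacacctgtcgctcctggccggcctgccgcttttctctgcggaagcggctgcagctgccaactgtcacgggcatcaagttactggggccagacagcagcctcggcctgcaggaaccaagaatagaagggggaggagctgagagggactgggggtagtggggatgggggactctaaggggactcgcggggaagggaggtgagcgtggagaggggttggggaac

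The Neurog3 window held 1 copy of ACAAAG, on the opposite strand as CTTTGT, beginning 179 bases before the start. The Hes6 window held 2 copies, beginning 250 and 236 bases before the start, and the window of the other Hes6 start held 1. The Neurod1 window held none. Of all 32851 windows of this length in the table, 16.5% held ACAAAG, 10.7% held ACAATG and 25.2% held one or the other. The word CANNTG, an E-box bound by bHLH factors, occurred once in the Neurog3 window (as CAGCTG), once in that of Neurod1 (as CATATG) and 3 times in the Hes6 window shown, and 66.2% of all windows held it. CACGNG, a word bound by Hes factors, occurred 2 times upstream of Neurog3, once upstream of Neurod1 and once in the Hes6 window shown, against 23.5% of all windows with a match. No 2 matches overlapped in these windows. Of the 2 Pax6 starts in the table, 1 window held no match and the other held ACAAAG once and CANNTG once. These are matches of letters and do not show that a factor binds there.

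One of the 19 probes passed the test across the whole array. It belonged to Neurog3, which was lower in the RNA labelled knockout, by a factor of 1.65. The other Neurog3 probe and all 3 Neurod1 probes also had means under 0 without passing. So did both Mafa probes and 2 of 3 probes each of Pax4 and Pax6. Of the 6 Hes6 probes 5 had means above 0, none of them past the threshold. Among these, MMC02G08 at 0.04 and ZX-00142P12 at 0.07 lay close to 0. Over the whole array, 5.49% of 21247 tested probes passed at an adjusted p under 0.05, 3.53% with a mean under 0 and 1.96% with a mean above 0, so 1 of 19 is close to the share of all probes. Without centring the directions turned, with 409 probes past the threshold under 0 and 849 above 0, against 750 and 416 with centring, and ZX-00126H08 stayed under 0 at -0.62 (adjusted p 0.0227). At an unadjusted p under 0.05 there were 10 of the 19, 6 under 0 and 4 above 0, against 27.6% of all tested probes. The median of the 19 means was -0.26, and that of all tested probes was 0.03.

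**Figure D1:**
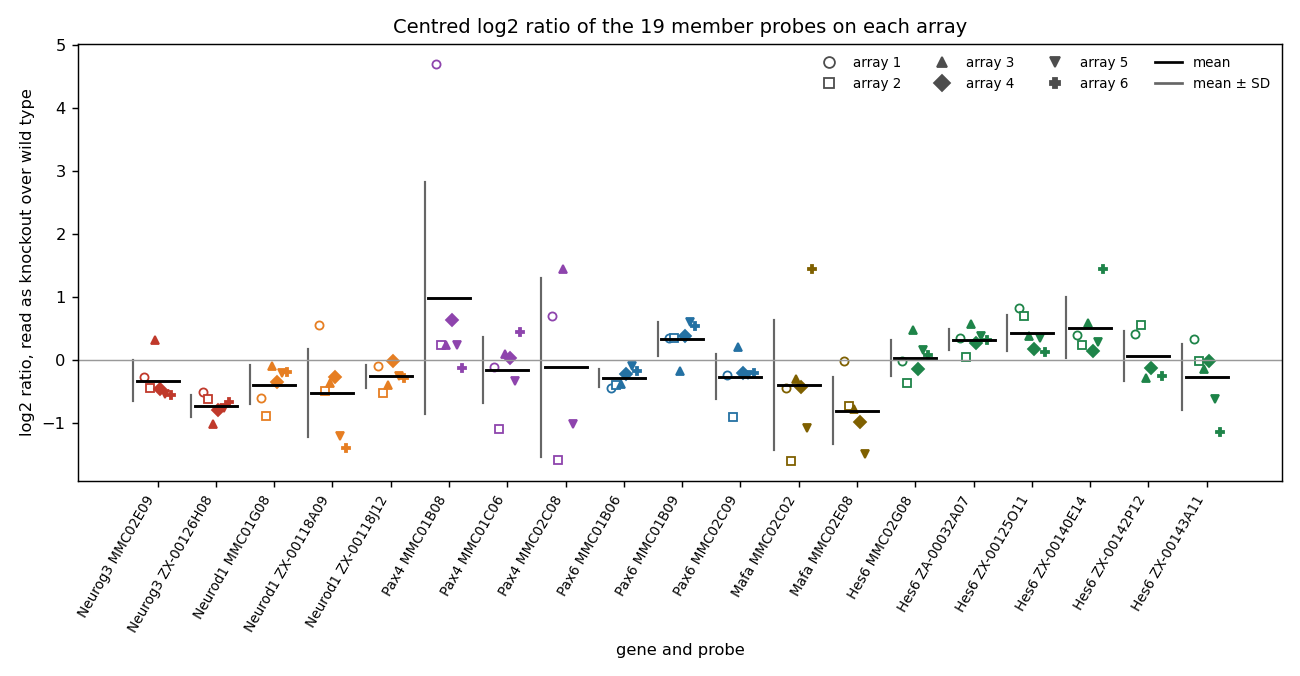
Centred log2 ratio (vertical axis, read as knockout over wild type) of each of the 19 probes (horizontal axis) on the 6 arrays, with open symbols for arrays 1 and 2, a black line for the mean and a grey bar for the mean ± SD. The Neurog3 probe ZX-00126H08 lies under 0 on all 6 arrays, while the Pax4 probe MMC01B08 owes its high mean to 4.71 on array 1.

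Neurog3 was measured by the probes ZX-00126H08 and MMC02E09. At ZX-00126H08 the log2 ratios were -0.51, -0.62, -1.01, -0.79, -0.76 and -0.67 on arrays 1 to 6. All 6 arrays were under 0, with array 3 the lowest and array 1 the nearest to 0. The mean was -0.73 ± 0.17 (SD, n = 6 arrays), with a 95% interval of -0.92 to -0.53 and a limma adjusted p of 0.0203. The difference is larger than the spread between arrays, and only 0.254% of all tested probes had a smaller p. In this mixed tissue, fewer Neurog3-expressing cells and less Neurog3 RNA per cell cannot be told apart.

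At the other Neurog3 probe, MMC02E09, the log2 ratios were -0.27, -0.44, 0.32, -0.46, -0.54 and -0.56. Arrays 1, 2, 4, 5 and 6 were under 0 and array 3 was above it, which is the array with the lowest value at ZX-00126H08. The mean was -0.32 ± 0.33 (n = 6), with an interval of -0.63 to -0.02 and a limma adjusted p of 0.164. Without array 3 it was -0.45, with an adjusted p of 0.0727. The 2 probes carry different accessions in the annotation, and MMC02E09 was nearer to 0 on all 6 arrays. Their within-array difference was 0.40 ± 0.46, with an exact sign-flip p of 0.0312 and an adjusted p of 0.116 over 26 pairs of probes of 1 gene.

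Averaged over both probes on each array, Neurog3 had log2 ratios of -0.39, -0.53, -0.34, -0.62, -0.65 and -0.61, all under 0. With 1 value per gene, its mean of -0.52 ± 0.13 had a limma adjusted p of 0.0244 over 10818 genes, of which 5.82% passed at an adjusted p under 0.05. Neurog3 was the 1 gene of the 6 past the threshold in that fit.

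The call of ZX-00126H08 depended on which arrays were used. Its mean kept within -0.77 and -0.67 when any 1 array was left out, but the adjusted p was 0.0313 without array 2 and 0.0513, 0.0513, 0.0706, 0.0782 and 0.0804 without array 1, 3, 4, 5 or 6. The same 5 arrays, each left out, left 10 to 45 calls over the whole array, against 1166 with all 6 arrays and 1072 without array 2. The arrays also form 2 sets by their correlation over all probes (Spearman's rho 0.52 between arrays 1 and 2, 0.44 to 0.58 among arrays 3 to 6, and 0.06 to 0.32 across), and these sets match the longer and shorter descriptions in the labels. At ZX-00126H08 the mean was -0.57 on arrays 1 and 2 and -0.81 on arrays 3 to 6, with adjusted p of 0.341 and 0.0648 when each set was tested alone. With the set as a term in the fit the mean was -0.69 and the adjusted p 0.0336.

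**Figure D2:**
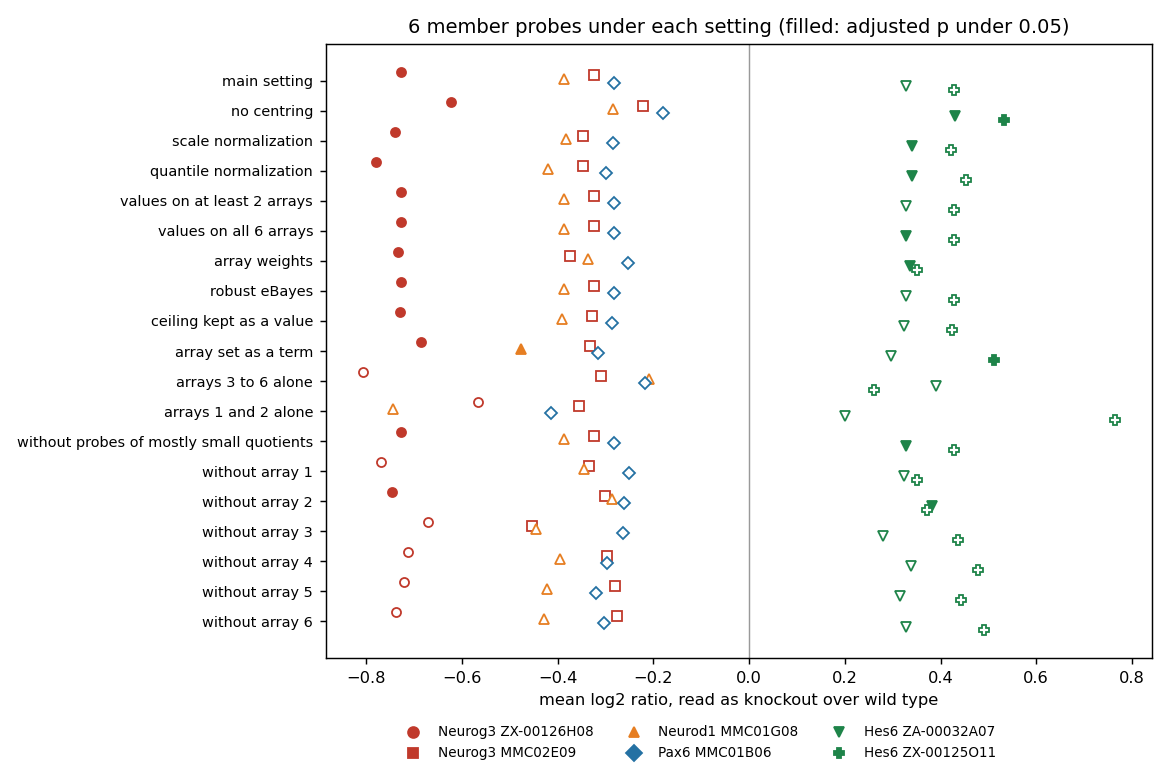
Mean log2 ratio (horizontal axis, read as knockout over wild type) of 6 member probes under the main setting and each alternative (vertical axis), filled where the limma adjusted p was under 0.05. The Neurog3 probe ZX-00126H08 stays between -0.81 and -0.57 and is filled under 11 of the 18 alternatives. No probe shown crosses 0, but these are a selection, and some Hes6, Pax4 and Neurod1 probes not shown turned sign under some alternatives.

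Neurod1, a bHLH factor that Neurog3 activates and that endocrine cells keep, had 3 probes with means under 0, each of a different annotated accession. At MMC01G08 the log2 ratios were -0.59, -0.89, -0.10, -0.35, -0.21 and -0.18. All 6 arrays were under 0, and arrays 1 and 2 were the lowest. The mean was -0.39 ± 0.30, with an interval of -0.67 to -0.10 and a limma adjusted p of 0.101. The sets of arrays differed here, at -0.74 on arrays 1 and 2 and -0.21 on arrays 3 to 6, and with the set as a term the mean was -0.48 and the adjusted p 0.0442.

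At ZX-00118J12 the log2 ratios were -0.10, -0.52, -0.40, -0.01, -0.25 and -0.28. They were again under 0 on all 6 arrays, and array 4 lay almost at 0. The mean was -0.26 ± 0.19, with an interval of -0.46 to -0.05 and an adjusted p of 0.119. The third probe, ZX-00118A09, had 0.55, -0.49, -0.36, -0.26, -1.20 and -1.39, a mean of -0.53 ± 0.70 and an adjusted p of 0.223. Array 1 was above 0 and the other arrays were under it, and its mean on arrays 1 and 2 was 0.03. Of its 6 deposited ratios, 5 equalled quotients of whole numbers up to 20 (within 6e-04 in log2), such as 0.5 and 0.75. Of the 110 member values 32.7% had that form, against 22.6% of the values of all tested probes, and spot intensities were not analysed here.

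The mean of the 3 Neurod1 probes was under 0 on all 6 arrays, from -0.63 to -0.05, and the gene mean of -0.39 ± 0.25 had an adjusted p of 0.0712. None of the Neurod1 probes passed the test adjusted over all probes, and none of their 3 pairs reached the smallest exact p.

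Pax4, a paired-homeodomain factor downstream of Neurog3 that favours the beta and delta cell fates, had no probe past the threshold, and its 3 probes, all of 1 annotated accession, lay on both sides of 0. MMC01B08 had log2 ratios of 4.71, 0.24, 0.24, 0.64, 0.23 and -0.13. Array 1 stood far above the others, which lay between -0.13 and 0.64. The mean of 0.99 ± 1.84 (adjusted p 0.350) was 0.24 without array 1. At MMC01C06 the values were -0.10, -1.09, 0.10, 0.04, -0.33 and 0.44, on both sides of 0, with a mean of -0.16 ± 0.52 and an adjusted p of 0.625. MMC02C08 had a value on 4 arrays, 0.70, -1.58, 1.45 and -1.02 on arrays 1, 2, 3 and 5, with a mean of -0.11 ± 1.42 and an adjusted p of 0.914. Its 95% interval, -1.57 to 1.34, shows how little this probe can tell. No direction for Pax4 could be read at this precision.

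Pax6, which alpha, beta and other hormone-producing cells need, had probes on both sides of 0 although all 3 carry the same annotated accession. At MMC01B06 the log2 ratios were -0.44, -0.39, -0.38, -0.21, -0.10 and -0.18. All 6 were under 0, and this was the tightest of the 19 probes, with a mean of -0.28 ± 0.14, an interval of -0.46 to -0.11 and an adjusted p of 0.073. At MMC01B09 they were 0.36, 0.36, -0.17, 0.38, 0.60 and 0.54. Array 3 was under 0 and the others above it, with a mean of 0.34 ± 0.27 and an adjusted p of 0.109. MMC02C09 had -0.24, -0.91, 0.21, -0.20, -0.23 and -0.21, with a mean of -0.26 ± 0.36 and an adjusted p of 0.257. Array 2 was its lowest and array 3 the one above 0.

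MMC01B06 and MMC01B09 come from wells 3 apart on 1 source plate. The first was lower than the second on all 6 arrays, with differences from -0.80 to -0.21, and their mean of -0.63 ± 0.22 had an exact sign-flip p of 0.0312 and an adjusted p of 0.116. With 6 arrays 0.0312 is the smallest p this test can give, and 7 of the 26 pairs reached it, so none could pass the adjustment. Averaged over its probes, Pax6 lay at -0.07 ± 0.14, with 4 arrays under 0 and 2 above, and an adjusted p of 0.585.

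Mafa, an activator of insulin transcription in maturing beta cells, had the lowest mean of the 19 probes without passing the test. At MMC02E08 the log2 ratios were -0.02, -0.74, -0.78, -0.99 and -1.48 on arrays 1 to 5, with no value on array 6. All 5 were under 0, array 1 almost at it. The mean of -0.80 ± 0.53 (n = 5) had an interval of -1.31 to -0.29 and an adjusted p of 0.0787. The other probe of the same annotated accession, MMC02C02, had -0.44, -1.60, -0.30, -0.42, -1.07 and 1.44. Arrays 1 to 5 were under 0 and array 6 was above it, at a deposited ratio of 3.00, 1 of its 3 ratios that equalled small quotients. The mean was -0.40 ± 1.03 with an adjusted p of 0.505, and without array 6 it was -0.77 with an adjusted p of 0.133.

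MMC02E08 sits in well E08 of source plate MMC02, directly before the Neurog3 probe MMC02E09. The 9 wells from D12 to E08 in row order, a stretch picked out after its values were seen, had means from -1.99 to -0.71, with a median of -1.29. The wells on either side, D11 at -0.57 and E09 with the Neurog3 probe at -0.32, were also under 0 but nearer to it. The median of the rest of the plate was -0.11, and all 92 tested probes of the plate had a median of -0.15. In the 4 wells on either side of MMC02E09 the median was -0.80, with 6 of 8 probes under 0. The wells right after it held Dlx1 at 0.18 and Dlx2 at 0.24. Around the other Neurog3 probe, ZX-00126H08 on another plate, the 8 neighbours had a median of -0.12 and a range of -0.41 to 0.30. Its own mean was -0.73. The part of plate position in the Mafa values and in those of either Neurog3 probe was not tested.

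**Figure D3:**
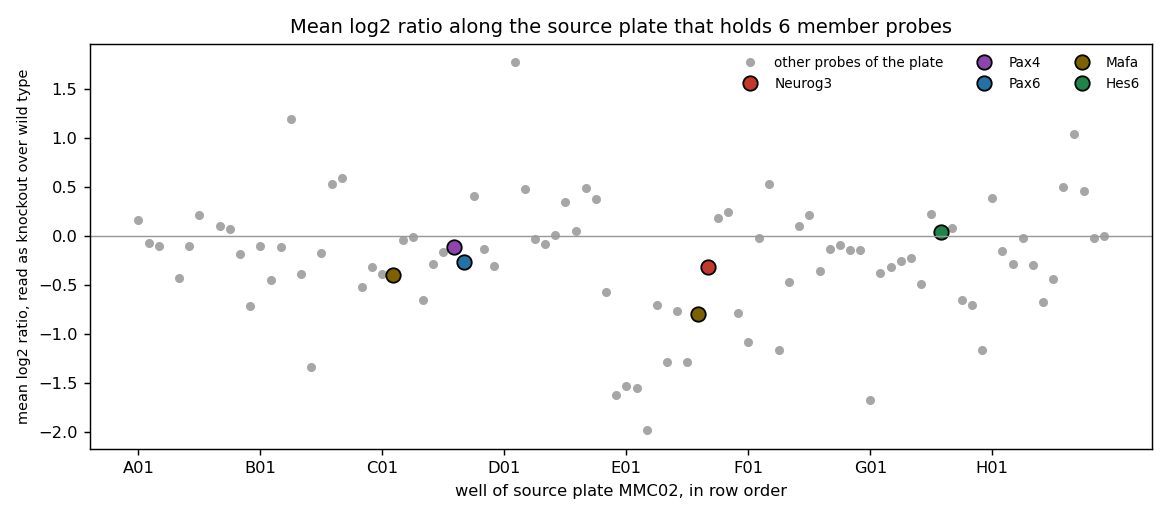
Mean log2 ratio (vertical axis, read as knockout over wild type) of the tested probes of source plate MMC02 in row order of their wells (horizontal axis), with the 6 member probes on it in colour and the others in grey. The Mafa probe at -0.80 is the last of 9 wells at -0.71 or lower, and the Neurog3 probe at -0.32 is in the next well.

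Hes6 had the most probes, 6, with no annotated accession in common. The probes ZA-00032A07, ZX-00125O11 and ZX-00140E14 were above 0 on all 6 arrays. They were 3 of the 16 member probes with 6 values, against 8.57% of all such probes, while 4 of the 16 were under 0 on all 6 arrays, against 13.8%. At ZA-00032A07 the log2 ratios were 0.35, 0.05, 0.57, 0.28, 0.39 and 0.33. Array 2 was nearly at 0 and the others were close together, and the mean of 0.33 ± 0.17 had an interval of 0.13 to 0.52 and an adjusted p of 0.0641. This is near the threshold, and 7 of 18 alternatives took it past, among them scaling of the arrays (adjusted p 0.0425) and no centring (0.0448), while the adjusted p over the alternatives ranged from 0.0261 to 0.603.

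At ZX-00125O11 the log2 ratios were 0.82, 0.71, 0.38, 0.18, 0.36 and 0.12. Arrays 1 and 2 were the highest, with means of 0.76 on arrays 1 and 2 and 0.26 on arrays 3 to 6. The mean over all 6 was 0.43 ± 0.28, with an interval of 0.16 to 0.70 and an adjusted p of 0.0732. With the array set as a term it was 0.51, with an adjusted p of 0.0405. At ZX-00140E14 the values were 0.39, 0.24, 0.60, 0.15, 0.29 and 1.44. Array 6 stood apart, and it too was a deposited ratio of 3.00. The mean of 0.52 ± 0.48 had an adjusted p of 0.120 and was 0.33 without array 6.

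The other Hes6 probes did not go with these. MMC02G08 ranged from -0.37 to 0.49 with a mean of 0.04 ± 0.29. ZX-00142P12, measured on 5 arrays, lay at 0.42 and 0.56 on arrays 1 and 2 and between -0.28 and -0.13 on arrays 3, 4 and 6, with a mean of 0.07 ± 0.40. ZX-00143A11 ranged from -1.14 to 0.34 with a mean of -0.26 ± 0.53, and array 1 was its 1 value above 0. ZX-00143A11 was under ZA-00032A07, ZX-00125O11 and ZX-00140E14 on all 6 arrays, by 0.59, 0.69 and 0.78 on average. The pairs each had an exact sign-flip p of 0.0312, and of the 15 Hes6 pairs 5 reached that value. The mean over the 6 probes was above 0 on every array, from 0.05 to 0.39, and the gene mean of 0.19 ± 0.12 had an adjusted p of 0.146.

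**Figure D4:**
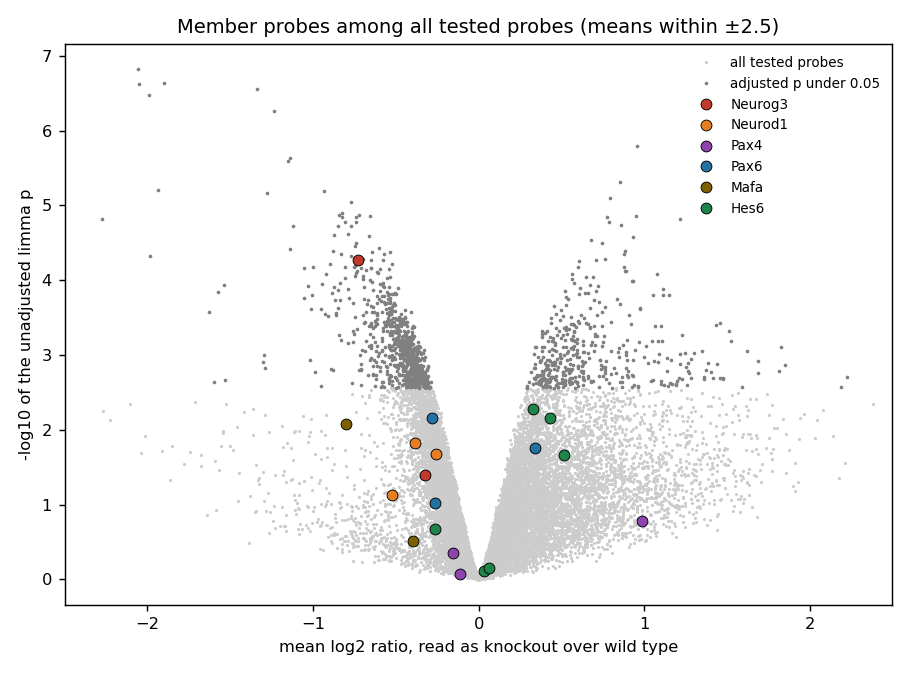
Mean log2 ratio (horizontal axis, read as knockout over wild type) against -log10 of the unadjusted limma p (vertical axis) for all tested probes within ±2.5, which leaves out 1 probe, in light grey, those past an adjusted p of 0.05 in dark grey and the member probes in colour. The Neurog3 probe at -0.73 is the 1 member among the dark points, and the Hes6, Pax6, Mafa and Neurod1 probes nearest to the threshold lie on both sides of 0.

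The 6 genes were ordered by their means, taken over the probes on each array and then over arrays. They ran from Neurog3 at -0.52 ± 0.13 through Mafa at -0.41 ± 0.99, Neurod1 at -0.39 ± 0.25, Pax6 at -0.07 ± 0.14 and Hes6 at 0.19 ± 0.12 to Pax4 at 0.28 ± 0.89. The Mafa value of 1.44 on array 6 came from MMC02C02 alone, since MMC02E08 had no value there. Neurog3 was under Mafa on only 2 of 6 arrays. The Mafa probe means of -0.80 and -0.40 were lower than the -0.73 and -0.32 of Neurog3, so Neurog3 is not read as the lowest gene. Differences between neighbours in this order were taken within arrays. The order comes from the same means, so the sign of each mean difference was fixed by it. Pax6 was under Hes6 on all 6 arrays, with a difference of -0.25 ± 0.23 and an exact sign-flip p of 0.0312. Neurod1 was under Pax6 on 5 of 6 arrays, with a difference of -0.32 ± 0.29 and an exact p of 0.0625. After adjustment over the 5 neighbouring pairs these 2 had a p of 0.156 each by the exact test. With 6 arrays 0.0312 is the smallest exact p, and only Pax6 with Hes6 reached it, so no pair could pass. The differences were -0.11 for Neurog3 minus Mafa, -0.02 for Mafa minus Neurod1 and -0.09 for Hes6 minus Pax4, each with an adjusted exact p of 1, and the SDs of these 3 differences, 1.00, 1.04 and 0.81, were far larger than the differences.

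The genes with array values most like those of the Neurog3 probe ZX-00126H08 were Cxcl12, Slc24a2, Pcbd1, Neat1 and Tmem14c. Likeness was the root mean square distance over the 6 centred values, among 15554 other probes with 1 gene symbol and 6 values, and the distances were 0.08, 0.09, 0.10, 0.10 and 0.10 in log2. Cxcl12, a chemokine, had -0.44, -0.46, -1.03, -0.74, -0.77 and -0.73. Its array 3 was also the lowest, and its mean of -0.69 ± 0.22 had a limma adjusted p of 0.0259. The probe was chosen for closeness over these same 6 values. Its low array 3, its mean and its p follow from that choice and are no separate support. Of the 15 other member probes with 6 values, the nearest was the Pax6 probe MMC01B06, in place 1450, and the other Neurog3 probe was in place 2783.

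Of 8 other endocrine transcription factors measured, at 13 probes, none passed the limma test at an adjusted p under 0.05, against 5.49% of all tested probes. An unadjusted p under 0.05 was found at 3 of the 13, against 27.6% of all tested probes. The smallest p was that of Nkx6-1, a factor of beta cells and their progenitors, at 0.39 ± 0.30 with an adjusted p of 0.0992. The median of the 8 gene means was -0.06, against 0.03 for all tested probes. Among 7 measured factors known to act upstream of Neurog3, 1 passed under 0 and 1 above 0. Foxa1, a pioneer factor of endoderm, was at -0.65 ± 0.31 with an adjusted p of 0.039. Hhex, a homeobox factor of the early bud, was at 1.30 ± 0.55 (n = 5) with an adjusted p of 0.0368. All 5 of its deposited ratios equalled quotients of small whole numbers, the form described above for a Neurod1 probe. The median of the 7 gene means was 0.46, with 4 above 0 and 3 under 0. On single arrays the median of this list ran from -0.33 to 0.27, so no direction of the list is read from it.

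Of 13 Notch pathway genes measured at 20 probes, 1 passed, under 0, at 1 probe. Of the 20 probes, 11 had an unadjusted limma p under 0.05, on both sides of 0. Over all tested probes 5.49% passed and 27.6% had an unadjusted p under 0.05. The gene that passed was Nrarp, a Notch target that dampens the signal. Its probe at -0.33 ± 0.07 had an adjusted p of 0.039, while its second probe was at 0.21 ± 0.15. The median of the gene means was -0.05. Hes1, which was named after its values were seen because Hes6 acts on it, had probes on both sides of 0, at -0.33 ± 0.26 and 0.19 ± 0.17, with adjusted p of 0.114 and 0.195. Of 12 measured bHLH partners and inhibitors, 1 passed, above 0. This was Id3, which keeps bHLH factors off DNA, at 0.43 ± 0.18 with an adjusted p of 0.0428, and its other probe was at -0.12 ± 0.11. The median was 0.02. None of 4 measured Pax and Maf relatives passed, and the median was 0.14. The smallest limma p was that of Pax3, at 0.42 ± 0.32 with an adjusted p of 0.0916, while its other probe was at 0.04 ± 0.22.

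Among 10 measured hormone and granule genes, Ins2 alone passed, above 0, at 0.54 ± 0.23 and 0.52 ± 0.22 with adjusted p of 0.0363 and 0.0373, on the other side of 0 from Neurog3. The median of these gene means was 0.19, with 8 above 0 and 2 under 0. The Ins2 probe MMC01B05 lies in the well before the Pax6 probe MMC01B06, whose 7 tested neighbours all had means above 0, from 0.26 to 1.12.

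In the marker lists a gene counts as passed if any 1 of its probes did, and 5.49% of all tested probes passed. By probe, 8 of 13 passed for liver, 1 of 27 for erythroid, 1 of 9 for mesenchyme and 0 of 3 for endothelium. For pancreatic epithelium 3 of 8 probes passed. Of 11 neuronal probes 2 passed above 0 and 2 under 0, and of 3 leukocyte probes 1 passed on each side. Of 7 measured liver genes 5 passed under 0, with a median of -0.77 and array medians from -0.94 to -0.53, led by Afp at -2.06 ± 0.22 at the lowest of its 4 probes, of which 3 passed and 1 lay at 0.01. Neuronal genes bear on the member list, since Neurod1, Pax6 and Hes6 are also active in developing neurons: of 4 measured, Tubb3 and Elavl4 passed above 0 and Ncam1 under 0, with a median of 0.18 and array medians from 0.01 to 0.33. Tubb3 passed at 1 of 3 probes and Elavl4 at 1 of 4, the others ranging from -0.05 to 0.34 and from -0.02 to 0.65, while Ncam1 passed at both of its probes. In the pancreatic epithelium list Cpa1 passed under 0, at -0.50, -0.41 and -0.48, of 4 measured genes, with a median of -0.23. Its array medians ran from -0.48 to 0.11, so no direction of that list is read. Of 5 mesenchyme genes 1 passed, under 0, of 3 leukocyte genes 1 passed on each side, and the 1 measured endothelial gene did not pass. Among 4 erythroid genes 1 probe passed, an Hba-a1 probe at 0.40, while the other 16 Hba-a1 probes did not pass and 12 of them had means under 0. The part of tissue composition in the Neurog3 ratio was not tested.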

How the data were processed

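The values are the authors' deposited log2 ratios, 1 for each probe on each array. How the authors scanned, corrected or normalized the arrays is not stated in the labels, and base and direction are not either; the base was taken from the ceiling of 16.61, which is the base-2 logarithm of a power of 10. Intensities were not used, so signal over background is unknown and the number of arrays limits the precision. Ceiling values (40 to 257 per array) were treated as missing. Each array was centred on its median, from -0.007 to 0.198 before centring.

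Probes with at least 4 values (21247) were fitted with limma 3.58.1 in R 4.3.3 (lmFit and eBayes, intercept only, two-sided), and p-values were adjusted over the whole array (Benjamini-Hochberg) at a threshold of 0.05. The fit was tested on simulated data, but the outcome is not given here. That test is therefore no evidence on how the fit behaves where arrays form sets or repeat the same pools. Probe pairs were compared with exact two-sided sign-flip tests over arrays. Of 18388 probes with 1 symbol, 17786 had an Entrez ID found in RefSeq, and their symbol was taken from there. Promoters matched 4 of the 6 genes. Figures used matplotlib 3.10.9.

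Every member probe is named. From each list, up to 4 genes past the threshold are named, or else the one with the smallest p. The members, lists and tests were chosen with earlier results of these data known.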

Additional observations from a re-analysis of the deposited data

Results flagged for a closer look

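For each of the 19 probes, the array farthest from the others was compared with the whole range. The rule is meant to pick out about 1 in 20 by chance, and here 4 of 19 had such an array. The share over all probes of these arrays is not given here, so the 4 are not read as an excess. Array 3 gave 0.32 at the Neurog3 probe MMC02E09, where the other arrays lay between -0.56 and -0.27. The Pax6 probe MMC01B09 was also apart on array 3, at -0.17 against 0.36 to 0.60. Array 1 gave 4.71 at the Pax4 probe MMC01B08, where the range elsewhere was -0.13 to 0.64. Array 6 gave 1.44 at the Hes6 probe ZX-00140E14, compared with 0.15 to 0.60. Without those arrays the means were -0.45, 0.45, 0.24 and 0.33.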

How the results depend on the processing

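Setting by setting, the 1166 probes past the threshold over all probes became 1786 with scaled arrays, 2402 with array weights, 694 with the array set as a term, 13 on arrays 3 to 6 alone and 0 on arrays 1 and 2 alone with limma (2953 at an unadjusted p under 0.05), and 10 to 1072 with 1 array left out. Quantile normalization gave 1718 and probes with all 6 values 1678. Member probes past the threshold numbered 1, and became 3 with no centring, with array weights or with the set as a term, 2 with scaled arrays, with quantile normalization, with 6 values or without probes of mostly small quotients, and 0 on arrays 3 to 6 alone or arrays 1 and 2 alone (8 and 4 at an unadjusted limma p under 0.05). With 1 array left out they numbered 0 to 2. Those added were Hes6 probes above 0, the Pax6 probe MMC01B09 with array weights (adjusted p 0.0494) and the Neurod1 probe MMC01G08 with the set. Without centring 849 probes passed above 0 and 409 under 0, against 416 and 750 with it. Pairs of probes past the adjusted exact threshold numbered 0 with all 6 arrays and with each array left out, the settings in which pairs were tested. On 6 arrays 7 pairs had an unadjusted exact p of 0.0312. On 5 arrays the smallest exact p is 0.0625, so no pair could pass with an array left out, and those counts say nothing about stability. Values of single probes under the alternatives were 313 times unchanged in direction and call, 17 times newly past the threshold (6 of them by the unadjusted exact test), 7 times no longer past it (all of the Neurog3 probe ZX-00126H08) and 13 times turned in sign without being past the threshold before or after, at Hes6, Pax4 and Neurod1 probes. No called value changed sign. No paired analysis was possible because all arrays form 1 group, so no replicate numbers are shared between groups; the ratio on each array already sets knockout against wild-type RNA.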

Other observations

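The deposited ratio of 3.00 occurred at 3 of the 19 probes: on array 3 for the Pax4 probe MMC02C08, and on array 6 for the Mafa probe MMC02C02 and the Hes6 probe ZX-00140E14. In each case it was the highest of that probe's values. The Hes6 probe ZX-00143A11 had deposited ratios of 1, 0.75 and 0.5 on arrays 3, 5 and 6, which are also quotients of small whole numbers.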
